A study of Sus scrofa with 6 samples.

Results

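Cell cycle genes were followed in 3 tissues of the reproductive axis (hypothalamus, pituitary and ovary), in sows in estrus and in anestrus. The genes are those that the deposited tables annotate with the pathway entry "Cell cycle" and not with the endoplasmic reticulum protein processing entry, which left out CUL1 and gave 88 of 19465 genes. The rule for membership used no measured value, but it was chosen with earlier results of these data known. A tissue was described from the members with a mean normalised count of at least 10 in it, which were 77 in the hypothalamus, 82 in the pituitary and 86 in the ovary. Of the members, 75 reached this floor in every tissue and 1, SMC1A, had 0 reads in every library.

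The sows were Landrace x Large White crosses that had farrowed once (primiparous). One state was normal estrus, and the other an anestrus for which the labels name inactive ovaries as the cause. Whole tissue was sequenced, with 1 library for each tissue and state, 6 in all. The labels give 3 sows per state, state no ages, and do not say whether a library pooled their RNA. Since no state has a replicate library within a tissue, no difference below has a replicate check, and "higher" or "lower" always describes the anestrous library against its estrous counterpart.

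A dividing cell passes from G1, when it grows, through S phase, when it copies its DNA, and G2 to mitosis, when the copies are parted. Cyclins switch on cyclin-dependent kinases (CDKs) at each step, CDK inhibitors hold them back, and the retinoblastoma protein RB restrains E2F factors until a G1 cyclin and its kinase release them to transcribe S phase genes. Most neurons have left the cycle, whereas the granulosa cells around the oocyte divide as a follicle grows, and the oocyte itself rests in meiosis until ovulation.

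Between 15314325 and 17384789 reads were assigned to genes per library. Tissue identity was checked on marker genes. The 8 anterior pituitary genes summed to 248866 and 259587 reads per 1000000 reads of the library (RPM) in the estrous and anestrous pituitary and at most 458.9 RPM in the other tissues. Granulosa genes reached 12890 RPM in the estrous ovary, and at most 148.5 RPM outside the ovary, while neuronal genes summed to 3510 and 4695 RPM in the hypothalamus. Folds were taken within a tissue, as log2 of the ratio of normalised counts after adding 1 to each, and a gene was called 2-fold different where this was at least 1 in size and its mean at least 10. Ratios in the text carry no added count, and their 95% intervals come from the reads alone, so they cover counting error and not the spread between sows.

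Few cell cycle genes were 2-fold different in any tissue, and those that were lay mostly on the lower side. In the hypothalamus 3 of 77 members were called, all lower (CDC20, CDK1 and TTK), beside 2.61% of all genes called lower and 1.99% called higher. In the pituitary 1 of 82 was higher (MYC) and 6 were lower (CCNB2, E2F1, GADD45B, GADD45G, TGFB3 and TTK), beside 2.27% and 4.23% of all genes. In the ovary 3 of 86 were higher (CDKN2B, TGFB1 and YWHAG) and 5 were lower (CDC7, CDKN2C, GADD45G, PKMYT1 and WEE2), beside 13.6% and 10.7% of all genes. Counted in either direction, the members' share in the ovary was 9.30%, below the 24.4% of all genes, while the shares in the hypothalamus and the pituitary, 3.90% and 8.54%, lay near their backgrounds of 4.61% and 6.5%. On equal library totals the ovary had 15 calls, 3 higher and 12 lower, and all genes went from 1795 higher and 1418 lower to 1399 and 1865. The hypothalamic calls were all of genes with a mean below 50, and 0 were left above that floor, with 4 in the pituitary and 5 in the ovary. These 18 calls fell on 16 genes. TTK was called lower in the hypothalamus and the pituitary, GADD45G in the pituitary and the ovary, and no member was called in all tissues.

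Most members nevertheless sat slightly below no difference. The median log2 fold of the members was -0.08 in the hypothalamus, -0.13 in the pituitary and -0.22 in the ovary, where the medians of all genes were -0.00, -0.00 and 0.01. Below 0 were 45 of 77, 50 of 82 and 59 of 86 members. Counting intervals lay wholly below a ratio of 1 for 21, 25 and 40 members, beside 20.8%, 23.6% and 34.3% of all genes. They lay wholly above 1 for 10, 11 and 15 members, beside 23.2%, 23.6% and 36% of all genes. In bulk tissue, fewer cells of a type and less RNA per cell cannot be told apart.

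**Figure D1:**
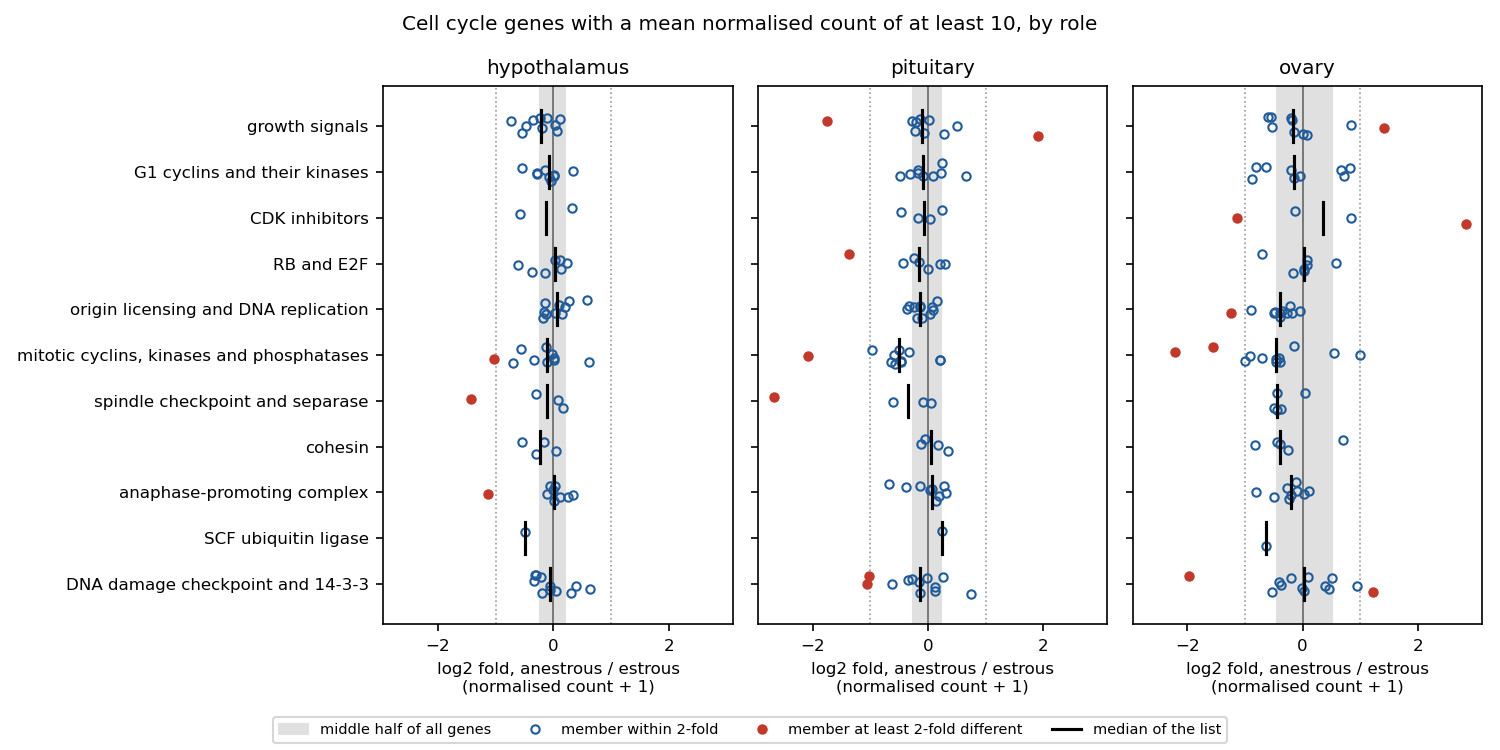
Log2 fold, anestrous over estrous, of every cell cycle gene with a mean of at least 10, by role (rows) and tissue (panels); each circle is 1 gene from 1 library a state, filled where 2-fold different, black lines are medians and the grey band holds the middle 50% of all genes. In the ovary the 11 genes of origin licensing and DNA replication all lie below 0.

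Genes that dividing cells need for S phase and mitosis were mostly below 0 in the ovary and the pituitary, by small amounts. They are the 29 members with a role in origin licensing and DNA replication, in mitotic kinase control, or in the spindle checkpoint. Their median was -0.06 over 24 genes in the hypothalamus, -0.28 over 26 in the pituitary and -0.43 over 28 in the ovary. With a floor of 50 in place of 10, the median was 0.030 in the hypothalamus, on the other side of 0, and -0.13 in the pituitary. With a floor of 200 it was -0.13 over 5 genes in the hypothalamus and -0.28 over 8 in the pituitary. At the floor of 10, below 0 lay 13 of 24, 19 of 26 and 25 of 28 of the S phase and mitosis genes. Of the other 59 members 53, 56 and 58 were over the floor, with medians of -0.08, -0.07 and -0.14. The difference between these groups of genes was not tested. In the pituitary the low median came with the mitotic and spindle checkpoint roles (-0.51 and -0.35), while the origin licensing and DNA replication genes, at -0.13, were at the median of all members. Of the S phase and mitosis genes 2, 2 and 3 were 2-fold lower, or 8.33%, 7.69% and 10.7%, beside 2.61%, 4.23% and 10.7% of all genes. The ovarian share was thus at its background. None was 2-fold higher, beside 1.99%, 2.27% and 13.6% of all genes.

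In the ovary every one of the 11 members that load or fire replication origins, or copy DNA, was below 0, with a median of -0.38. The interval lay below 1 for 9 of them. CDC7, the kinase that with its partner DBF4 fires loaded origins, had 172 reads in the estrous and 67 in the anestrous ovary. That was 2.37-fold lower (95% interval 1.78 to 3.19) and the only 2-fold call of this role in any tissue. In the hypothalamus CDC7 had 116 and 120 reads, and in the pituitary 64 and 64, so the libraries of each of these pairs were level within counting error.

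ORC4, a subunit of the origin recognition complex on which the replicative helicase is loaded, had 681 and 585 reads in the hypothalamus, 723 and 544 in the pituitary, and in the ovary 1142 and 566. The estrous library was the higher one in each tissue, by 1.13-fold (1.01 to 1.26), 1.25-fold (1.12 to 1.40) and 1.86-fold (1.68 to 2.06). Another subunit, ORC3, went the other way in the hypothalamus, with 673 and 971 reads and a ratio of 1.49-fold higher (1.35 to 1.65). In the ovary ORC3 was 1.13-fold lower (1.02 to 1.26), with 812 and 661 reads.

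The MCM proteins form the helicase that unwinds DNA at the fork. In the ovary MCM2 had 528 and 373 reads, MCM3 448 and 353, and MCM4 575 and 414. Each was lower in the anestrous library, by 1.31-fold, 1.17-fold and 1.28-fold, with every interval below 1. CDC45, which completes the active helicase, was lower by 1.42-fold (1.18 to 1.71), with 293 and 191 reads. PCNA, the sliding clamp of the DNA polymerases, had 1039 and 691 reads and was 1.39-fold lower (1.26 to 1.53). Outside the ovary, PCNA in the pituitary was the only one of these 5 genes whose interval left out 1, at 566 and 469 reads and 1.14-fold lower (1.01 to 1.29). MCM2, for example, had 91 and 106 reads in the hypothalamus and 187 and 164 in the pituitary. CDC6, the loader of the helicase, was at 39 and 35 reads in the ovary, where a small difference was not detectable.

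Of the mitotic cyclins, kinases and phosphatases over the floor, 7 of 10 were below 0 in the hypothalamus, 9 of 11 in the pituitary and 10 of 12 in the ovary, with medians of -0.12, -0.51 and -0.46. CCNB2, a B-type cyclin that drives entry into mitosis, had 5 and 1 reads in the hypothalamus, 30 and 6 in the pituitary, and in the ovary 94 and 43. The pituitary pair gave 4.72-fold lower (1.93 to 13.9) and the ovary pair 2.02-fold lower (1.39 to 2.97), where the log2 fold with the added count, -0.996, fell just short of the call. Its hypothalamic mean of 2.97 was below the floor.

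CCNB1, the major mitotic cyclin, had 17 and 15 reads in the hypothalamus, 49 and 23 in the pituitary, and in the ovary 247 and 173. It was 2.01-fold lower in the pituitary (1.20 to 3.46) and 1.32-fold lower in the ovary (1.08 to 1.61), and the hypothalamic libraries were level within counting error. With the added count the pituitary log2 fold of CCNB1 was -0.978, just short of the call. On equal library totals it was -1.088. CDK1, the kinase these cyclins switch on, had 18 and 8 reads in the hypothalamus, 43 and 29 in the pituitary, and in the ovary 198 and 132. The estrous count was the higher in each tissue, but only the ovarian interval left out 1, at 1.38-fold lower (1.10 to 1.74). The hypothalamic call for CDK1 thus rests on 26 reads, with a ratio of 2.18-fold lower (0.902 to 5.79).

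CCNA2, the cyclin of S phase and G2, had 50 and 45 reads in the hypothalamus, 91 and 55 in the pituitary, and in the ovary 292 and 143. It was 1.56-fold lower in the pituitary (1.11 to 2.22) and 1.88-fold lower in the ovary (1.54 to 2.32). Its germline relative CCNA1 had 20 reads in the estrous ovary and 0 in the anestrous one. With the anestrous library set to a floor of 3 reads, CCNA1 was 6.15-fold lower. The counting interval of the reads themselves allows a difference as small as 4.56-fold. The ovarian mean of 9.61 kept CCNA1 out of the counts above. In the pituitary, by contrast, CCNA1 stood at 106 and 116 reads, level within counting error.

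The kinases that hold CDK1 back by phosphorylation were lower in the anestrous ovary as well. WEE2, the oocyte form, had 69 and 13 reads in the ovary and at most 3 in any other library. It was 4.90-fold lower (2.68 to 9.66), and 8 of 8 oocyte marker genes over the floor were lower in the same library, with a median of -1.75. PKMYT1 had 21 and 6 reads, 3.23-fold lower (1.26 to 9.78). WEE1, the form of body cells, had 496 and 282 ovarian reads and was 1.62-fold lower (1.40 to 1.89). In the hypothalamus WEE1 stood on the other side, with 103 and 154 reads, 1.54-fold higher (1.19 to 2.0), and in the pituitary it was 1.43-fold lower (1.18 to 1.72) with 284 and 188.

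Phosphatases of the mitotic kinases did not follow one direction. CDC25B, which activates CDK1, had 165 and 108 reads in the hypothalamus and 310 and 196 in the pituitary, which is 1.48-fold lower (1.15 to 1.90) and 1.49-fold lower (1.24 to 1.79). In the ovary it had 726 and 606 reads, 1.11-fold lower with an interval that included 1 (0.991 to 1.23). CDC25C was instead higher in the anestrous ovary, with 94 and 127 reads and a ratio of 1.46-fold (1.11 to 1.93). CDC14A, a phosphatase linked to mitotic exit in yeast, had 38 and 71 ovarian reads, 2.02-fold higher (1.35 to 3.09), at the edge of the call. Its relative CDC14B was lower in every tissue, with 572 and 441, 888 and 668, and 633 and 425 reads, or 1.26-fold, 1.25-fold and 1.37-fold, each interval below 1.

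The spindle checkpoint holds chromosome separation until every chromosome is attached. TTK, the kinase at its head, had 24 and 8 reads in the hypothalamus, 19 and 2 in the pituitary, and in the ovary 49 and 33. The ratios were 2.91-fold lower (1.26 to 7.48), 8.96-fold lower (2.16 to 79.4) and 1.37-fold lower (0.864 to 2.20). All pairs leaned the same way, and the pituitary value, the farthest of any member called lower, rested on 21 reads. BUB1 and BUB1B, kinases or pseudokinases of the same checkpoint, had 30 and 20 and 93 and 66 reads in the ovary, with intervals that included 1. BUB3, which anchors them at the kinetochore and is made in resting cells too, differed by at most 1.06-fold in any tissue. ESPL1, or separase, the protease that cuts cohesin at anaphase, had 130 and 85 ovarian reads, 1.41-fold lower (1.07 to 1.88).

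**Figure D2:**
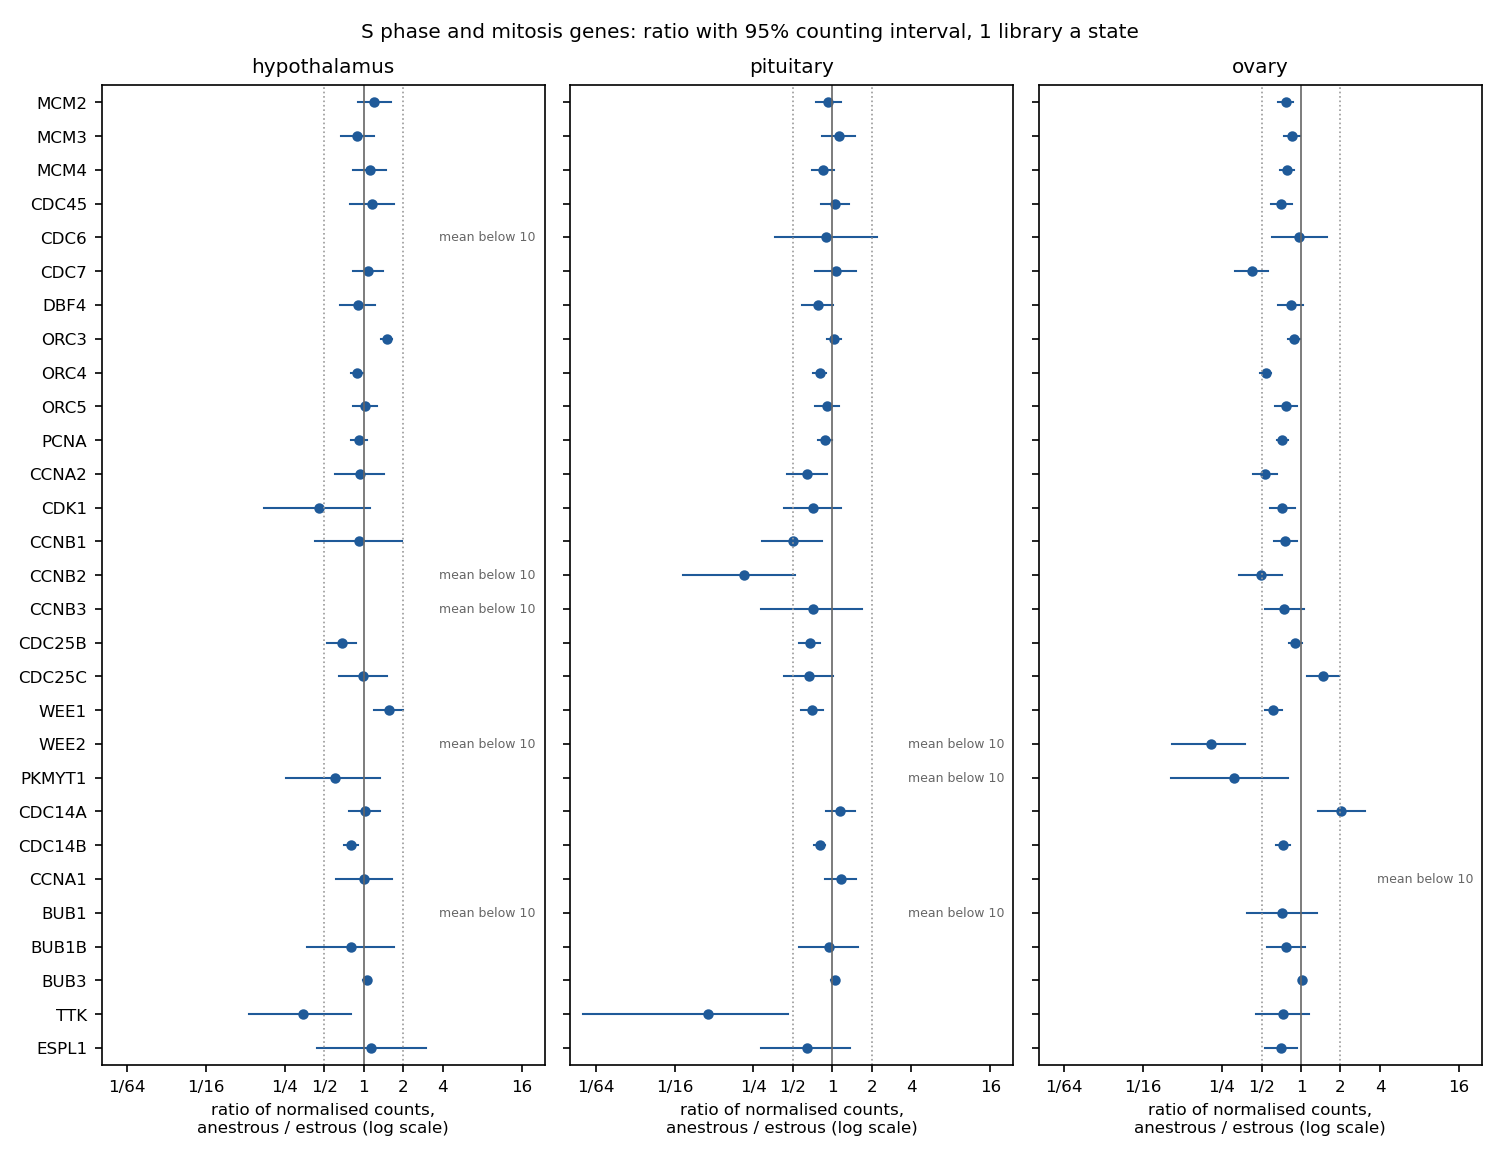
Ratio of normalised counts, anestrous over estrous, on a log axis for the 29 S phase and mitosis genes in each tissue; points are ratios, bars 95% counting intervals, dotted lines mark 2-fold, and genes with a mean below 10 are named without a point. Nearly all ovarian points lie left of 1, and the longest bar belongs to TTK in the pituitary.

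The anaphase-promoting complex tags mitotic cyclins and securin for destruction. CDC20, its activator in mitosis, had 26 and 11 reads in the hypothalamus, 72 and 42 in the pituitary, and in the ovary 578 and 306. It was lower by 2.29-fold (1.09 to 5.14), 1.62-fold (1.09 to 2.43) and 1.74-fold (1.51 to 2.01). FZR1, the activator used in G1 and in resting cells, instead had 2718 and 2671, 1969 and 2124, and 2086 and 1628 reads. Its largest difference was 1.18-fold lower in the ovary (1.11 to 1.26). Of the 7 core subunits, ANAPC5 went opposite ways, 1.27-fold and 1.25-fold higher in the hypothalamus and pituitary (381 and 467, 613 and 722 reads) and 1.40-fold lower in the ovary (683 and 449). ANAPC7 was 1.31-fold lower in the pituitary (928 and 669 reads) and 1.20-fold lower in the ovary (993 and 761), and the role as a whole had medians of 0.02, 0.07 and -0.21.

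SKP2, which recognises CDK inhibitors for destruction by the SCF ubiquitin ligase, was the only member with that role. It had 86 and 59 reads in the hypothalamus, 84 and 94 in the pituitary, and in the ovary 415 and 245, where it was 1.56-fold lower (1.33 to 1.84).

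Cohesin holds the copied chromosomes together until anaphase and also shapes chromatin in resting cells. RAD21, its cleaved subunit, had 6650 and 6656 reads in the hypothalamus, 4146 and 3766 in the pituitary, and in the ovary 3000 and 2026. The first pair was level within counting error, and the ovary was 1.37-fold lower (1.29 to 1.45). SMC3, with 2166 and 1525 ovarian reads, was 1.31-fold lower there (1.23 to 1.40) and 1.12-fold higher in the pituitary (1.06 to 1.19, 2031 and 2150 reads). STAG2 was lower in every tissue, by 1.23-fold, 1.08-fold and 1.20-fold, with 2359 and 1858, 1784 and 1556, and 1785 and 1377 reads.

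Some cohesin and checkpoint genes occur at more than 1 place in the tables, and the pathway entry sits on 1 of the copies. SMC1A without the entry had 519 and 523, 624 and 692, and 531 and 663 reads, while the member of that name had 0. STAG1 without the entry had 1045 and 734 ovarian reads and the member 37 and 56, the opposite order, so the 1.64-fold higher ratio of the member (1.06 to 2.56) does not speak for the gene as a whole. ATM and BUB1B also occur at a pair of places, and how reads were shared between the copies was not given in the sources used here.

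Cyclins and kinases of G1 showed both directions in the ovary. CDK2, the partner of E-type and A-type cyclins, had 31 and 27 reads in the hypothalamus, 42 and 35 in the pituitary, and in the ovary 299 and 150. Only the ovary pair parted beyond counting error, at 1.84-fold lower (1.51 to 2.25). CDK6, a partner of D-type cyclins, had 483 and 322, 524 and 525, and 942 and 1533 reads. It was thus 1.45-fold lower in the hypothalamus (1.26 to 1.68), level in the pituitary and 1.76-fold higher in the ovary (1.63 to 1.91).

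The D-type cyclins, which carry growth signals to the cycle, were all lower in the anestrous ovary. CCND1 had 73 and 38 ovarian reads, 1.77-fold lower (1.18 to 2.70). CCND2, the D-type cyclin of granulosa cells, had 284 and 168, 1.56-fold lower (1.28 to 1.90), and CCND3 had 3865 and 3216, 1.11-fold lower (1.06 to 1.16). In the hypothalamus the same genes had 60 and 55, 58 and 46, and 948 and 925 reads, with every interval including 1. In the pituitary CCND1 had 229 and 192 and CCND2 55 and 37 reads, again with intervals that included 1, and CCND3 was 1.18-fold higher (1.11 to 1.24) with 2414 and 2678.

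Of the E-type cyclins, which open S phase with CDK2, CCNE1 was above 1 in all tissues with 209 and 256, 58 and 65, and 39 and 60 reads. The ratios were 1.26-fold (1.05 to 1.53), 1.19-fold (0.821 to 1.72) and 1.67-fold (1.10 to 2.56). CCNE2 had 155 and 125 ovarian reads, with an interval that included 1, and was 1.59-fold higher in the pituitary (1.04 to 2.46) with 38 and 57. CDK7, the kinase that activates other CDKs, was 1.58-fold higher in the ovary (1.31 to 1.92) with 182 and 266 reads and level elsewhere within counting error.

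The CDK inhibitors present as members are the 4 INK4 genes, which block the D-type cyclin kinases. CDKN2B had 4 and 3 reads in the hypothalamus, 21 and 14 in the pituitary, and in the ovary 9 and 65. The ovarian ratio, 7.83-fold higher (3.88 to 17.9), was the farthest of any member called higher. CDKN2C went the opposite way in the same libraries, with 403 and 168 reads, 2.21-fold lower (1.84 to 2.67). Elsewhere CDKN2C had 118 and 76 reads in the hypothalamus, 1.5-fold lower (1.12 to 2.03), and 431 and 419 in the pituitary, level within counting error. CDKN2A had 11 and 19 ovarian reads, with an interval that included 1, and CDKN2D 231 and 194, also including 1. CDKN2D was 1.25-fold higher in the hypothalamus (1.14 to 1.39) with 721 and 876 reads.

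Among RB, the E2F factors and their partners, 1 gene was called in 1 tissue. E2F1, an activator of S phase genes, had 91 and 57 reads in the hypothalamus, 62 and 22 in the pituitary, and in the ovary 165 and 93. It was lower by 1.55-fold (1.10 to 2.19), 2.66-fold (1.61 to 4.54) and 1.64-fold (1.26 to 2.13). RB1 had 736 and 783, 472 and 375, and 547 and 511 reads, and its interval left out 1 only in the pituitary, at 1.19-fold lower (1.03 to 1.36). E2F3, another activator, was 1.35-fold lower in the pituitary (1.04 to 1.76) with 146 and 102 reads and 1.49-fold higher in the ovary (1.24 to 1.79) with 207 and 285. E2F4, which works as a repressor in resting cells, HDAC2, E2F5 and RBL1 differed by at most 1.29-fold in any tissue, and of their intervals only that of E2F4 in the pituitary, 1.15-fold higher (1.04 to 1.27), left out 1.

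**Figure D3:**
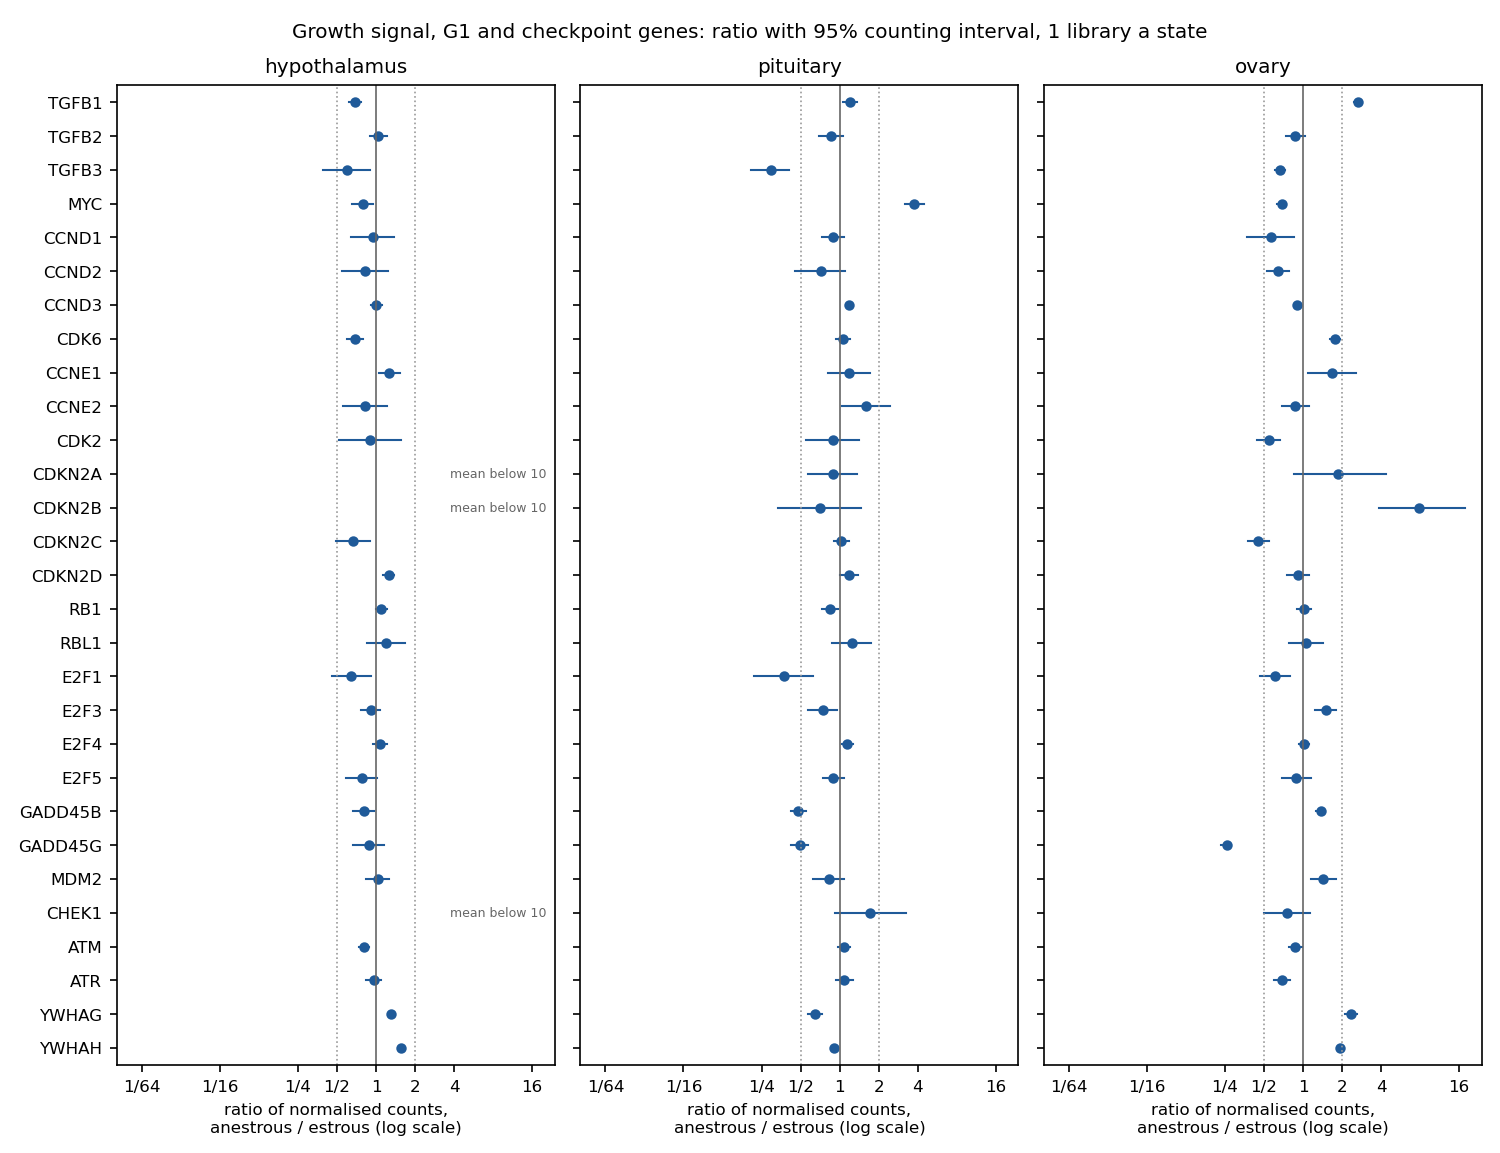
Ratio of normalised counts, anestrous over estrous, on a log axis for cell cycle genes of G1 control, growth signals and the DNA damage checkpoint in each tissue; points are ratios, bars 95% counting intervals, and dotted lines mark 2-fold. MYC lies right of 2 in the pituitary and left of 1 in the other tissues, and CDKN2B lies farthest right in the ovary.

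MYC, a transcription factor that growth signals induce, was the only member called higher in the pituitary. It had 269 and 205 reads in the hypothalamus, 170 and 607 in the pituitary, and in the ovary 1635 and 1031. In the pituitary it was 3.78-fold higher (3.19 to 4.51), whereas it was 1.27-fold lower in the hypothalamus (1.06 to 1.53) and 1.46-fold lower in the ovary (1.35 to 1.58). In the authors' deposited table the adjusted p-value for MYC in the pituitary was 0.00029, where 0.761% of all genes had one of at most 0.05. No other member had an adjusted p-value of at most 0.05 in the authors' deposited tables, and the shares of all genes were 0.868% in the hypothalamus and 0.819% in the ovary.

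Transforming growth factor beta (TGF-beta) ligands, which restrain the cycle of many epithelial cells through SMAD proteins, diverged. TGFB3 had 68 and 39 reads in the hypothalamus, 169 and 47 in the pituitary, and in the ovary 1273 and 776. Every anestrous library was the lower one, by 1.69-fold (1.12 to 2.57), 3.39-fold (2.44 to 4.79) and 1.51-fold (1.38 to 1.66). TGFB1 had 874 and 579, 448 and 510, and 1153 and 2817 reads. It was thus 1.46-fold lower in the hypothalamus (1.32 to 1.63), 1.21-fold higher in the pituitary (1.06 to 1.37) and 2.65-fold higher in the ovary (2.47 to 2.84).

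Macrophages are a known source of TGFB1. In the ovary 10 of 11 phagocyte marker genes over the floor were higher, 7 of them 2-fold, with a median of 1.39. Of all ovarian genes, 13.6% were 2-fold higher. The phagocyte genes summed to 2080 RPM in the estrous and 3512 RPM in the anestrous ovary, and none was at 0. In the hypothalamus 8 of 10 phagocyte genes were below 0, with a median of -0.26. In the pituitary, where TGFB1 was higher, 7 of 10 were below 0, with a median of -0.12. The part of phagocytes in the TGFB1 values was not tested. TGFB2 had intervals that included 1 in every tissue. Of the SMAD proteins that carry the signal, SMAD3 was 1.42-fold higher in the pituitary (1.29 to 1.56, 786 and 1052 reads), and SMAD2 and SMAD4 differed by at most 1.15-fold anywhere. GSK3B, a kinase that marks D-type cyclins for removal, was 1.78-fold higher in the ovary (1.58 to 2.02) with 433 and 713 reads and 1.21-fold lower in the pituitary (1.04 to 1.41) with 381 and 297. ABL1, a tyrosine kinase, was 1.44-fold lower in the ovary (1.38 to 1.49, 7137 and 4584 reads) and 1.39-fold lower in the hypothalamus (1.31 to 1.46, 3305 and 2310 reads).

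GADD45 proteins are induced by stress and hormones and can bind CDK1 and PCNA. GADD45G had 112 and 95 reads in the hypothalamus, 603 and 280 in the pituitary, and in the ovary 2571 and 609. It was 2.03-fold lower in the pituitary (1.76 to 2.35) and 3.90-fold lower in the ovary (3.56 to 4.26), and the hypothalamus was level within counting error. GADD45B had 285 and 221, 692 and 314, and 1005 and 1270 reads. The pituitary was 2.08-fold lower (1.82 to 2.38) and the hypothalamus 1.25-fold lower (1.04 to 1.5), but the ovary was 1.37-fold higher (1.26 to 1.49).

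The 14-3-3 proteins hold CDC25 phosphatases away from CDK1 and serve many other pathways. YWHAG had 3373 and 4287 reads in the hypothalamus, 620 and 379 in the pituitary, and in the ovary 500 and 1076. It was 1.31-fold higher (1.25 to 1.37), 1.54-fold lower (1.36 to 1.76) and 2.33-fold higher (2.1 to 2.60). YWHAH shared those signs, with 12262 and 18412, 6683 and 5687, and 2859 and 5092 reads, or 1.55-fold higher, 1.11-fold lower and 1.93-fold higher. YWHAB, with 13097 and 15751 and 6833 and 8251 reads, was 1.24-fold higher in the hypothalamus and 1.31-fold higher in the ovary, and YWHAQ differed by at most 1.10-fold. In the hypothalamus 7 of 7 neuronal marker genes were also higher, with a median of 0.54 and none at 0, and 7 of 8 genes of astrocytes and myelin were lower, with a median of -0.32. In the pituitary 3 of 6 neuronal genes over the floor were higher, with a median of 0.02. In the ovary 2 of 3 were higher, and the neuronal list summed to only 4.78 and 13.4 RPM. The part of these cell types in the 14-3-3 values was not tested.

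Of the damage sensors, the kinase ATR had 487 and 309 ovarian reads, 1.45-fold lower (1.26 to 1.68), and was level in the other tissues. PRKDC, a kinase of DNA break repair, was 1.16-fold lower in the hypothalamus (1.02 to 1.31) and 1.27-fold lower in the pituitary (1.11 to 1.45). MDM2, a ubiquitin ligase, was 1.43-fold higher in the ovary (1.15 to 1.78) with 147 and 194 reads. CHEK1, the kinase that stalls the cycle when replication stalls, had 62 and 43 ovarian reads, with an interval that included 1.

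A small group of members was lower beyond counting error in all tissues. Of the 75 members over the floor everywhere, 6 had intervals below 1 in each tissue, namely TGFB3, CDC20, E2F1, STAG2, ORC4 and CDC14B. That is 8% of them, beside 2.61% of all 11897 genes over the floor everywhere. On equal library totals instead of the authors' size factors it was 13 members, or 17.3%, beside 6.77%. None had intervals above 1 in each tissue by either scaling, beside 2.87% and 1.04% of all genes. This grouping was made after the values were seen.

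A count model with tissue as a block, which treats the tissues as if they were replicates of a state, called no member. edgeR's quasi-likelihood test called 0 of 13533 genes at a Benjamini-Hochberg adjusted p of at most 0.05 (484 at an unadjusted p under 0.05). DESeq2 called 46 of 16887 genes (556 unadjusted) and no member. At an unadjusted p under 0.05 each tool had 5 members, of 83 tested in edgeR and 87 in DESeq2. All were lower, and they were TGFB3, CDC20, CCNB2, E2F1 and GADD45G. Their adjusted p in edgeR was 0.973. In DESeq2 it was 0.628 for TGFB3, 0.754 for GADD45G and 0.9999 for the others.

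Cell cycle genes were most often highest in the ovary. Each gene was compared with itself across the 6 libraries as RPM, since the tables were normalised separately. For 43 of 88 members both ovary libraries lay above the other 4, and for 17 both hypothalamus libraries and for 7 both pituitary libraries did so. Among the 14702 genes over the floor in any tissue, these numbers were 4155, 4427 and 1401, so 48.9% of members and 28.3% of all genes were highest in the ovary. Hormone genes took about 1 in every 4 pituitary reads (248866 and 259587 RPM), which lowers the RPM of all other genes there.

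Of the 29 S phase and mitosis genes 20 were highest in the ovary, 2 in the pituitary and none in the hypothalamus. Of the other 59 members 23 were highest in the ovary (39.0%), 17 in the hypothalamus and 5 in the pituitary, and 7 of the 10 growth signal genes were highest in the ovary. CDC20, for example, went from 578 and 306 reads in the ovary to 26 and 11 in the hypothalamus. The anestrous ovary, although lower than the estrous one, thus lay above both libraries of each other tissue for CCNA2, CCNB1, CDK1, MCM2, MCM4 and PCNA. The hypothalamus led for 6 of 13 genes of the damage and 14-3-3 role, including YWHAB, YWHAG, YWHAH and YWHAQ, and for 4 of 9 genes of the anaphase-promoting complex, FZR1, CDC23, CDC27 and ANAPC7. The pituitary led for CCND1, CDKN2A, E2F5, CDK7, BUB3, ANAPC13 and CCNA1.

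**Figure D4:**
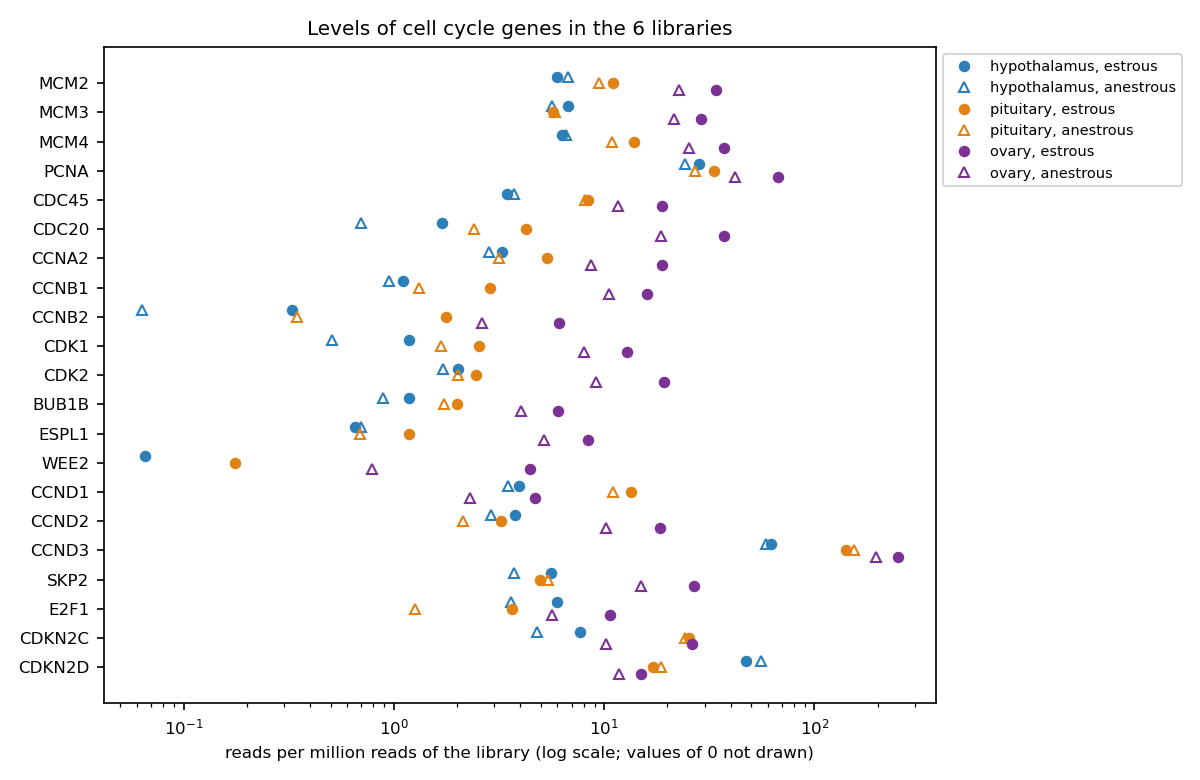
Level of 21 cell cycle genes in each of the 6 libraries, in RPM on a log axis; colours are tissues, filled circles estrous and open triangles anestrous libraries, and values of 0 are not drawn. For most S phase and mitosis genes both ovary points lie right of the other 4, and CCND1 is highest in the pituitary.

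Members share other pathway entries in the tables. Of the 24 that are also annotated to oocyte meiosis, 15 of 23 over the floor were below 0 in the ovary, with a median of -0.21. Of the 19 annotated to progesterone-mediated oocyte maturation, 15 of 18 were below 0 there, with a median of -0.33. Among all members 59 of 86 were below 0 in the ovary, with a median of -0.22. Other shared entries had ovarian medians on either side of these values. Examples are p53 signaling (15 of 20 below 0, median -0.39) and viral carcinogenesis (11 of 24, median 0.01). These entries overlap, so the counts do not add up.

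Some genes of the pathway are not members, because they lack the entry in these tables or, for CUL1, because the rule left them out. Found by symbol were 18 such genes, including CUL1 and the other copies of SMC1A and STAG1. Over the floor were 16 in the hypothalamus, 15 in the pituitary and 17 in the ovary. None of these was 2-fold different, beside 4.61%, 6.5% and 24.4% of all genes. Their medians were 0.08, 0.10 and -0.03. Among the pathway genes not found by symbol, and not analysed here, were CDK4, CDKN1A, CDKN1B, CDKN1C, MCM5, MCM6, MCM7, PLK1, MAD2L1 and PTTG1.

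Proliferation genes outside the pathway entry were mostly below 0 in the pituitary and the ovary too. Of 25 over the floor in the pituitary, 18 were below 0 and 10 were 2-fold lower, with a median of -0.59, where 4.23% of all genes were 2-fold lower. In the ovary 23 of 26 were below 0 and 2 were 2-fold lower, with a median of -0.38. That is 7.69%, below the 10.7% of all genes called lower there. In the hypothalamus 15 of 22 were below 0, with a median of -0.13, and E2F7, an E2F repressor at 6 and 366 reads, was the only one 2-fold different.

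TOP2A, the topoisomerase that untangles copied chromosomes, had 223 and 77 reads in the pituitary, a log2 fold of -1.44, and 853 and 546 in the ovary, -0.53. AURKB, a mitotic kinase, had 103 and 41 reads in the pituitary, and in the ovary 276 and 109, with log2 folds of -1.23 and -1.22. FOXM1, a transcription factor of mitotic genes, had 165 and 75 ovarian reads, -1.01. MKI67, the gene of the Ki-67 antigen, did not share the direction everywhere, with 98 and 127 reads in the hypothalamus, 93 and 70 in the pituitary, and in the ovary 508 and 610. Its log2 folds were 0.42, -0.32 and 0.38.

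Markers of other cell types moved beside these values. Of all genes, 10.7% were 2-fold lower in the ovary and 4.23% in the pituitary. In the ovary 9 of 9 granulosa genes were lower, 8 of them 2-fold, with a median of -1.73 and a summed level of 12890 RPM in the estrous and 2376 RPM in the anestrous library, none at 0. Oocyte genes summed to 186.8 and 58.1 RPM, with 1 of 11 at 0 in each library. Of the red blood cell genes both of those over the floor were 2-fold lower in the ovary, with a median of -1.52 and a summed level over all 4 of 54.9 and 16.5 RPM. The granulosa and oocyte medians lay much farther from 0 than the -0.43 of the S phase and mitosis genes in the same libraries. In the pituitary 6 of 8 lymphocyte genes were lower, 4 of them 2-fold, with a median of -0.98, while their summed level was 49.1 and 57.2 RPM, and none was at 0. The 8 anterior pituitary genes had a median of -0.02 there. The part of these cell types in the S phase and mitosis values was not tested.

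**Figure D5:**
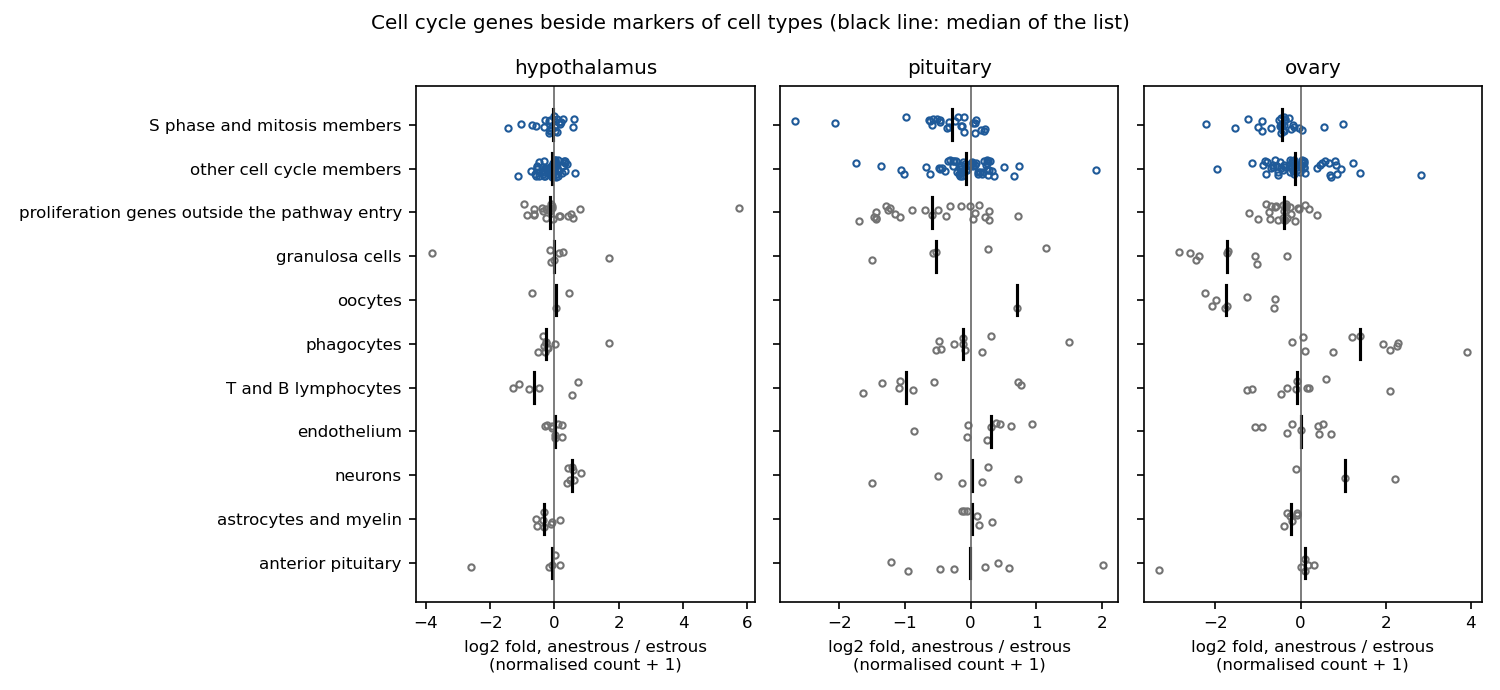
Log2 fold, anestrous over estrous, of S phase and mitosis members, the other members, proliferation genes outside the entry and cell type marker lists in each tissue; open circles are genes with a mean of at least 10 and black lines are medians. In the ovary the granulosa and oocyte medians, -1.73 and -1.75, lie far below the S phase and mitosis median of -0.43.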

How the data were processed

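Libraries were made with a TruSeq RNA kit, per the labels' protocols, and TopHat2 2.1.0 is listed per the submitters' processing notes. Which counter, genome build and annotation release were used, and whether strand was, is not given in the sources used here. Overlapping genes and near-identical copies are therefore uncertain. The authors deposited 1 table per tissue, in which the signal of each gene is its read count divided by a library size factor, and, per the file headers, a raw and an adjusted p-value for the 2 libraries. DESeq is named per the labels. Dividing each column by its smallest value gave whole reads, to within 0.01, for 100% of values, and these reads were used. Depths lay between 15314325 and 17384789 reads.

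The 88 members, the 21 gene lists of 255 genes and the tests were chosen with earlier results of these data known. The lists were the 11 pathway roles, proliferation genes outside the entry, and markers of granulosa cells, oocytes, lymphocytes, phagocytes, endothelium, neurons, astrocytes and myelin, anterior pituitary and red blood cells. Endothelial genes had medians of 0.02, 0.31 and 0.01 in hypothalamus, pituitary and ovary, and red blood cell genes, with 2, 3 and 2 over the floor, had -0.53, 0.41 and -1.52. Of the listed genes 46 were not found by symbol. The tables named 12765 of 19465 genes, and a table of Ensembl pig gene names raised this to 14422.

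Folds used a pseudocount of 1, which understates low genes. The 95% intervals of ratios are Clopper-Pearson intervals of the exact binomial conditional on the sum of both counts. Without molecular identifiers, PCR reads are not independent molecules, so only counting error is covered. A library with 0 reads was set to a floor of 3 reads. Named genes were members with a mean of at least 50 and 2-fold different, up to 4 per role by size, a set of textbook genes, and MKI67, TOP2A and up to 6 other proliferation genes a tissue. Any other gene was named after its values were seen. Of the deposited authors' p-values only that of MYC is printed.

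The alternatives tried were scaling by library totals, TMM-type scaling that trims 30% of log ratios and 5% of levels, no floor, floors of 50 and 200, a pseudocount of 5, the authors' adjusted p, and keeping CUL1. The tissue-block fits with edgeR 4.0.16 and DESeq2 1.42.0 in R 4.3.3 were added after the data were seen. Scripts ran in Python 3.11.15 with SciPy 1.17.1 and were tested on simulated data. The values of 1 member are not reported here. No sequences or coordinates are given.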

Additional observations from a re-analysis of the deposited data

Results flagged for a closer look

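Some members lay on opposite sides of no difference in different tissues, with at least 2-fold in 1 tissue, a mean of at least 50 there, and a counting interval clear of 1 on the other side in another. MYC had a log2 fold of 1.91 in the pituitary, -0.34 in the hypothalamus and -0.55 in the ovary. GADD45B had -1.05 in the pituitary and 0.45 in the ovary. TGFB1 had 1.40 in the ovary and -0.55 in the hypothalamus. YWHAG had 1.22 in the ovary and -0.63 in the pituitary. With 1 library per tissue and state, the differences between tissues were not tested.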

How the results depend on the processing

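Scaling to equal library totals lowered ratios on the log2 scale by 0.09 in the hypothalamus, 0.12 in the pituitary and 0.20 in the ovary, and the folds of low genes by less, since these carry the added count. The members' median became -0.25 in the pituitary and -0.42 in the ovary, and that of the S phase and mitosis genes -0.39 and -0.63. The medians of all genes moved too, to -0.12 and -0.19. Taken from the median of all genes, the S phase and mitosis median stayed at -0.28 in the pituitary and -0.43 in the ovary. The ovarian calls went from 8 to 15 (3 higher, 12 lower), while all genes went from 1795 higher and 1418 lower to 1399 and 1865, and in the hypothalamus from 271 and 355 to 217 and 438. Higher floors removed thinly counted calls. With a mean of at least 50 there were 0, 4 and 5 calls in hypothalamus, pituitary and ovary, and with at least 200 there were 0, 3 and 4. At the floor of 50 these were 0%, 6.15% and 6.67% of members, beside 2.34%, 3.11% and 20.3% of all genes. At the floor of 200 they were 0%, 6.52% and 6.9% of members, beside 1.27%, 1.74% and 17.2% of all genes. The hypothalamus had 1 call with a pseudocount of 5 and 5 with no floor. These were 1.3% and 5.75% of members, beside 3.67% and 10.8% of all genes. Also requiring the authors' adjusted p of at most 0.05 left 0, 1 and 0. At a floor of 50 the S phase and mitosis median was 0.030 in the hypothalamus, the reverse of its sign, over 15 genes, and -0.13 in the pituitary. At a floor of 200 it was -0.13 over 5 genes in the hypothalamus and -0.28 over 8 in the pituitary. Each of the 18 calls kept 2-fold under both scalings, and 16 of 18 did so with a pseudocount of 5, where CDC20 and CDK1 of the hypothalamus did not. Within a tissue there is 1 library a state, so pairing could enter only through the fits with tissue as a block.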
